A study of Homo sapiens with 27 samples.

Results

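The genes described here are 39 interferon-stimulated genes, followed by name among the 27115 genes listed for each library after SIRT3 knockdown in diffuse large B-cell lymphoma (DLBCL) cells. The list is one of known members of the interferon response. The members were chosen by name, with results of these data already known, among them the log2 fold change of RSAD2 over the 3 cell lines. Which measured values weighed in that choice is not recorded. The values of RSAD2 are therefore given with no test, and every count of members is a description. In the fits with all libraries, counts against shCTRL in which RSAD2 was called stand beside the count without it. Unless said otherwise, counts from fits that leave out a library include RSAD2 where it was tested. So do the counts that compare lines in shCTRL cells and the count of responses that differ between lines. All 39 symbols were found in the files. Karpas422, OCI-LY1 (labelled OCILy1) and HBL1 cells are described in the study as an OXPHOS, a germinal center B-cell and an activated B-cell type of DLBCL. They were infected with lentivirus carrying a scramble control hairpin (shCTRL) or either of a pair of hairpins against SIRT3, a mitochondrial deacetylase (shSIRT3-1 and shSIRT3-2). Total RNA was sequenced on day 8. There were 3 replicates in each of 9 groups, or 27 libraries. All groups, controls included, thus carried a lentiviral hairpin vector with a puromycin marker, and no uninfected cells were analysed here. The study says that knockdown was done in replicates in each line, but no label says that replicates were separate cultures. P-values therefore measure the spread between these libraries, which may be technical.

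Between 28694398 and 53405456 reads per library fell on genes. SIRT3, the targeted gene, was at 9.14 to 16.4 CPM (mapped reads scaled to a common total) in the 9 shCTRL libraries, at 1.06 to 2.79 CPM with shSIRT3-1 and at 2.84 to 6.24 CPM with shSIRT3-2, and in each line no knockdown library reached a control. All 5 B-cell markers examined (MS4A1, CD79A, CD79B, CD22 and PAX5) were present in every library, at 4.55 to 740 CPM. Of 8 markers of other cell types, CD3D passed 1 CPM in Karpas422 (highest value 1.59 CPM), CSF1R and EPCAM did so in HBL1 (highest value 7.27 CPM), and none did in OCI-LY1. In one line a single control library stood apart for these genes. Karpas422 shCTRL replicate 1 had the highest value of the 3 controls for 37 of 37 tested members, against 21.1% of all tested genes. In HBL1 the libraries numbered 3 were the lowest of their group for 36 of 38 members with shCTRL, 37 of 38 with shSIRT3-1 and 31 of 38 with shSIRT3-2, against 50.5%, 48.5% and 37.5% of all tested genes.

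Type I interferons bind the receptor chains IFNAR1 and IFNAR2, whose kinases JAK1 and TYK2 phosphorylate STAT proteins, among them STAT2. Phosphorylated STAT2 joins IRF9 in a complex that binds the interferon-stimulated response element (ISRE) and turns on a large set of genes. The products of these genes sense viral RNA (DDX58, IFIH1, DDX60), degrade or trap it (the OAS and IFIT families), block virus entry or release (IFITM proteins, BST2), conjugate the ubiquitin-like protein ISG15, or feed back on the pathway (STAT2, IRF7, IRF9, USP18). Tumor cells of many kinds express a share of these genes without added interferon.

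Many members lie side by side in the genome, and most of those with a listed promoter share the ISRE core. On GRCh37, the build to which the reads were aligned (hg19), 22 of the 39 members lay within 100000 bp of another, in 13 neighbour pairs that include the IFIT genes on chromosome 10, OAS1, OAS2 and OAS3 on chromosome 12 and the IFITM genes on chromosome 11. In 2 pairs the genes overlap on opposite strands, CMPK2 (chr2:6980701-7006766) with RSAD2 (chr2:7005688-7038370) and PARP9 (chr3:122246771-122283424) with DTX3L (chr3:122283185-122294050). The study names no strand-specific library kit, so reads from the shared bases may belong to either gene. Reads may also be split between genes of similar sequence, such as the IFITM genes. RefSeq promoters (GRCh38.p14, 250 bases before to 50 bases after a start site) were listed for 31 members. The ISRE core GAAANNGAAA, on either strand, counting overlapping matches, was found for 22 of these 31 genes (71.0%) and for 1195 of all 27305 genes listed (4.38%). Of the windows, 26 of 41 (63.4%) for members and 1255 of 35116 (3.57%) in all held it. A match is a description of the letters in the window. For 9 members on which the results below turn, 1 match each is printed in the direction of the gene, with the core or its reverse complement TTTCNNTTTC in capitals. IFI27 had 4 matches over 2 overlapping windows, which both held the same stretches, chr14:94110618-94110647 and chr14:94110631-94110660. IFI6 had 3 matches, and IFIT1, ISG15, IFI44L and DDX60 had 2 each.
RSAD2 (chr2:6877622-6877651, plus strand): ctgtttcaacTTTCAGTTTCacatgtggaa
IFIT1 (chr10:89392510-89392539, plus strand): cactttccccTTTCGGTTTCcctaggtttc
ISG15 (chr1:1013380-1013409, plus strand): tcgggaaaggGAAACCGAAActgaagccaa
ISG20 (chr15:88638937-88638966, plus strand): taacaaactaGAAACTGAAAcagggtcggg
IFI6 (chr1:27672266-27672295, minus strand): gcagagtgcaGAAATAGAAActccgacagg
IFI27 (chr14:94110618-94110647, plus strand): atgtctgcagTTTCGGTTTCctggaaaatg
IFI44L (chr1:78620365-78620394, plus strand): tcctagtgagGAAAAAGAAAgttagtggca
DDX60 (chr4:168318786-168318815, minus strand): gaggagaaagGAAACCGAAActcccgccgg
PARP9 (chr3:122564322-122564351, minus strand): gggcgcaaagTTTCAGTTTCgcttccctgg
ISG20, whose knockdown libraries lay below the controls in all 3 lines, held the core as RSAD2 and IFI27 did. The PARP9 match lies between PARP9 and DTX3L, and is also in the window of DTX3L. The 9 listed members with no match in their windows were CMPK2, OAS1, IFI35, STAT2, IRF9, DDX58, HERC6, XAF1 and SAMD9L.

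In control cells the lines differed in these genes by more than their spread. OCI-LY1 was low, and both other lines were high, with the order of Karpas422 and HBL1 depending on the gene. Summed over the 39 members, shCTRL libraries held 3137, 1311 and 950.4 CPM in Karpas422, 413, 361 and 354 CPM in OCI-LY1 and 2967, 2889 and 1859 CPM in HBL1. A gene was called here when its fold change (FC) exceeded 1.5 and its Benjamini-Hochberg (BH) adjusted p over all tested genes was under 0.05 in limma, on log2(CPM + 0.1). In the comparison of shCTRL cells, 37 members were tested, and Karpas422 was higher than OCI-LY1 in 33 of them and lower in 2, where 28.2% of all genes were called higher and 22.6% lower. HBL1 was higher than OCI-LY1 in 31 of 37 and lower in none (29.6% and 25% of all genes), and against Karpas422 it was higher in 14 and lower in 5 (25.8% and 28.8% of all genes).

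RSAD2, which encodes the antiviral enzyme viperin, was at 40.2, 7.36 and 5.46 CPM in Karpas422. In OCI-LY1 it was at 0.0414, 0.0173 and 0.00995 CPM, and HBL1 had 0.64, 0.723 and 0.131 CPM. The values of the 3 lines did not overlap, and those of OCI-LY1 were at or near the 3-read level of 0.0249 to 0.0472 CPM. IFITM1, a barrier to virus entry, was far higher in Karpas422 (192, 68.4 and 39.1 CPM) than in HBL1 (3.86, 3.73 and 1.88 CPM) or OCI-LY1 (0.828, 1.51 and 1.45 CPM; HBL1 against Karpas422, log2 FC = -4.69 ± 0.51, limma BH-adjusted p = 1.3e-05). The reverse held for IFIH1, the RNA sensor MDA5, at 3.67, 0.931 and 0.399 CPM in Karpas422 and 43.2, 39.1 and 18.9 CPM in HBL1, which did not overlap (log2 FC = 4.67 ± 0.60, limma BH-adjusted p = 5.2e-05). ISG15, at 331, 81.3 and 52.5 CPM in Karpas422 and 173, 159.8 and 125 CPM in HBL1, was at 17.4, 10.2 and 12.4 CPM in OCI-LY1. BST2, or tetherin, overlapped across all 3 lines, at 41.6 to 73.7, 25.2 to 43.4 and 42.0 to 62.1 CPM.

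**Figure D1:**
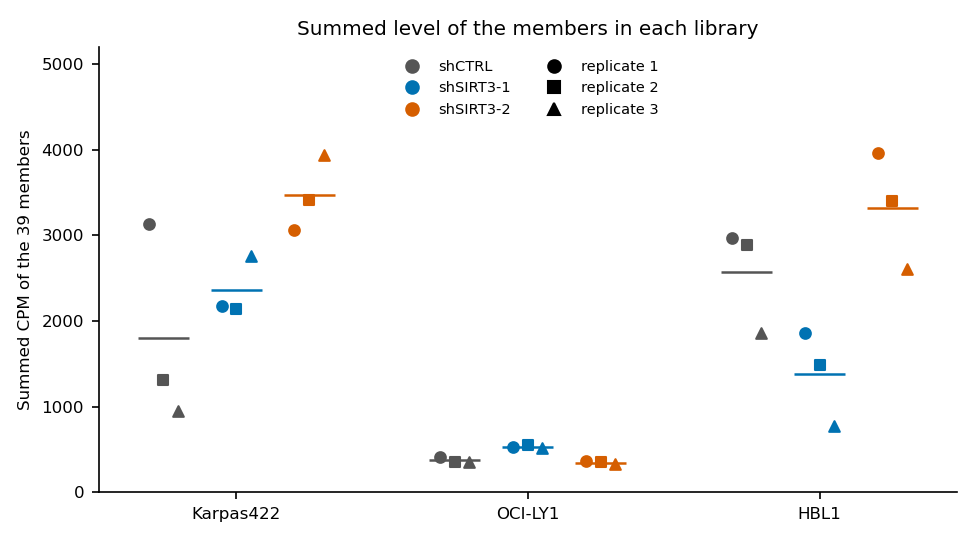
Summed CPM of the 39 members (y axis, linear from 0) in each of the 27 libraries, by line and hairpin, with a symbol for each replicate number and a horizontal line at the group mean. With shCTRL the sums are 413 CPM or less in OCI-LY1 and 1859 CPM or more in HBL1, and in Karpas422 they reach from 950 to 3137 CPM.

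Over the 3 lines together, few members were called with either hairpin. RSAD2 is left out first, since its change over the 3 lines was known beforehand. With shSIRT3-1, 2 of 37 members were called higher (IFI27 and IFI44) and 1 lower (ISG20), where 3.92% of all genes were called higher and 9.09% lower. With shSIRT3-2, 7 of 37 were called higher (CMPK2, IFIT1, IFIT2, IFIT3, IFI6, IFI27 and PARP9) and 1 lower (ISG20), where 3.29% of all genes were called higher and 10.2% lower. The median log2 FC of the members was 0.18 with shSIRT3-1 and 0.53 with shSIRT3-2, beside -0.05 and -0.03 over all genes. With RSAD2 included, as a description, the counts higher were 3 and 8 of 38, and the medians were 0.21 and 0.53. IFI27 had log2 FCs of 1.78 ± 0.45 and 1.96 ± 0.45 (limma BH-adjusted p = 0.0027 and 0.0013), and ISG20 of -0.79 ± 0.12 and -0.71 ± 0.12 (adjusted p = 2.3e-05 and 9.0e-05). The lines are taken apart below, because 32 of 38 members had responses that differed between them (limma F test on the interaction of line and hairpin), where 41.8% of all genes did. Within a line, both hairpins are set against the same 3 shCTRL libraries, so their results share those controls.

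**Figure D2:**
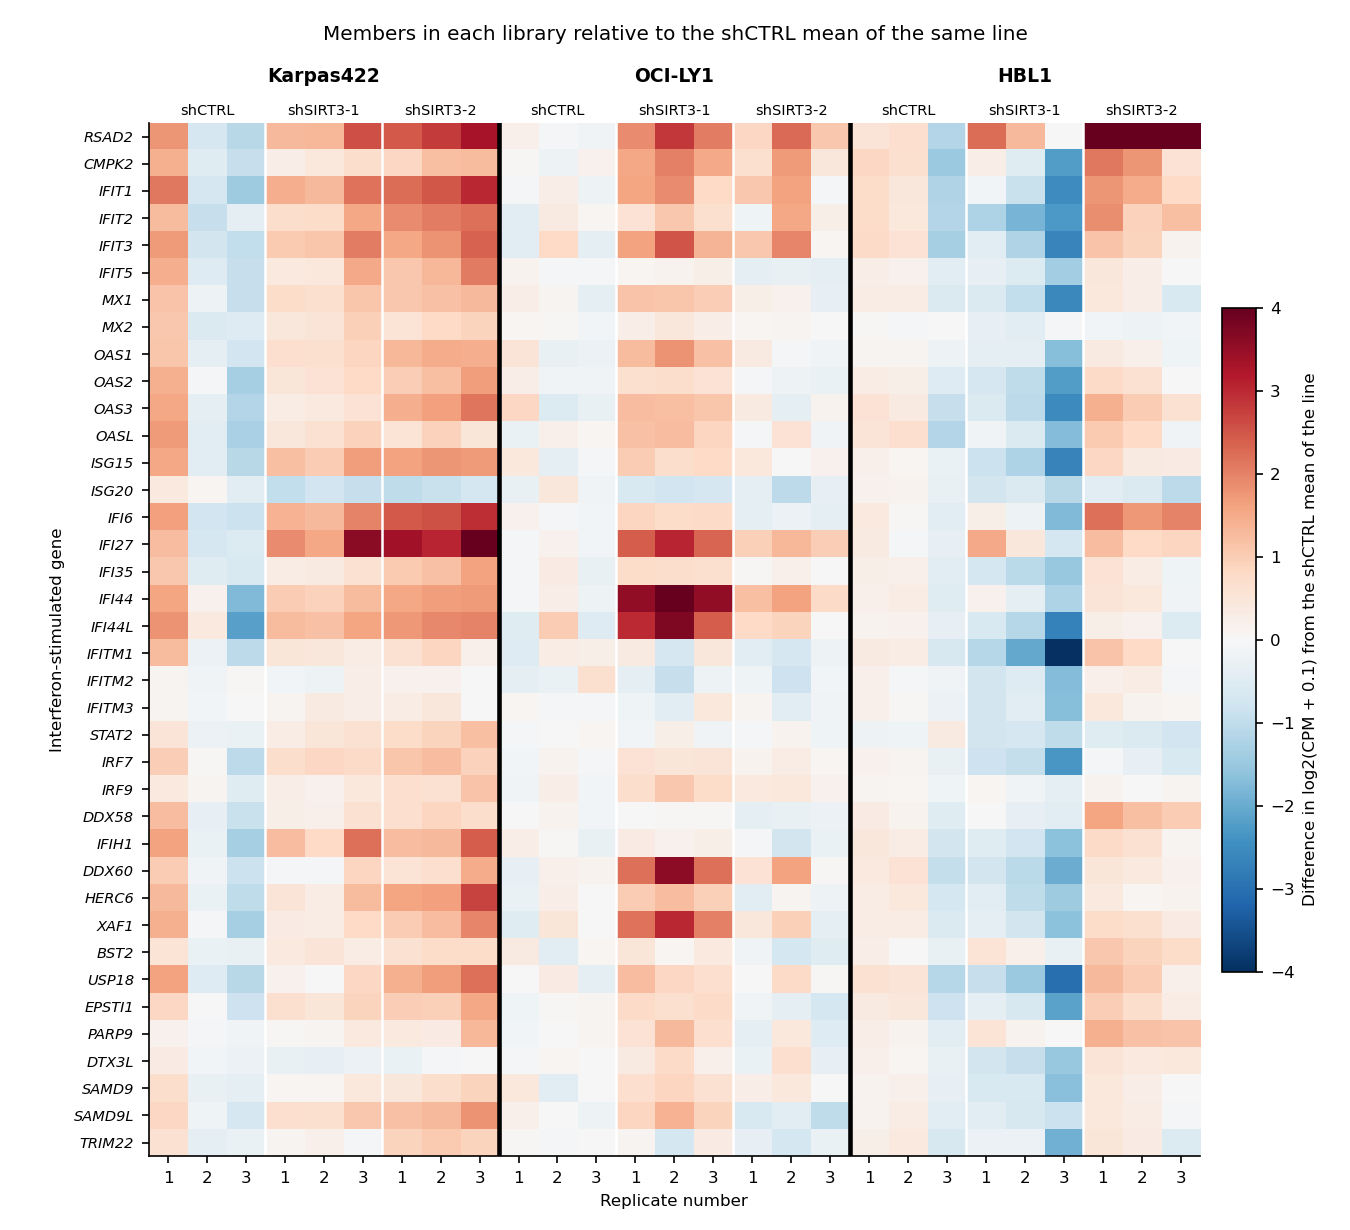
Difference in log2(CPM + 0.1) between each library and the shCTRL mean of its line (color, red higher and blue lower), for 38 members in 27 libraries; HERC5, which did not exceed 0.0107 CPM in any library, is left out, and the scale ends at 4 in either direction. Karpas422 knockdown libraries are mostly red, as is shCTRL replicate 1, OCI-LY1 is red with shSIRT3-1, and HBL1 is blue with shSIRT3-1 and red with shSIRT3-2.

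In Karpas422 the members were mostly higher after SIRT3 knockdown, with more calls for shSIRT3-2, and the counts and medians moved with which control libraries were used. With shSIRT3-2, 20 of 37 tested members were called higher and 1 lower, beside 5.55% and 9.44% of all genes, and the median log2 FC was 1.28 (-0.00 over all genes). With shSIRT3-1, 1 was called higher (IFI27) and 1 lower (ISG20), beside 4.45% and 11.5% of all genes, although the log2 FC was above 0 in 34 of 37 members (median 0.65; -0.08 over all genes). Without RSAD2 the count called higher with shSIRT3-2 was 19 of 36 (median 1.23). The 20 members called higher were RSAD2, IFIT1, IFIT2, IFIT3, MX1, OAS1, OAS3, ISG15, IFI6, IFI27, IFI35, STAT2, IRF9, HERC6, BST2, USP18, EPSTI1, PARP9, SAMD9L and TRIM22. In these bulk RNA libraries, fewer cells expressing a gene and less RNA per cell cannot be told apart.

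RSAD2 was at 40.2, 7.36 and 5.46 CPM with shCTRL, 29.3, 29.4 and 70.2 with shSIRT3-1 and 64.4, 82.9 and 116 with shSIRT3-2 in Karpas422. All 3 shSIRT3-2 libraries were above all 3 controls, and the shSIRT3-1 libraries overlapped the controls through shCTRL replicate 1 (log2 FC = 1.73 ± 0.65 (SE) with shSIRT3-1 and 2.85 ± 0.65 with shSIRT3-2). IFI27, a small membrane protein gene strongly induced by type I interferon, was at 2.98, 0.719 and 0.789 CPM with shCTRL, 4.72, 3.72 and 15.7 with shSIRT3-1 and 13.4, 10.6 and 43.6 with shSIRT3-2, and no knockdown library overlapped a control. Its log2 FCs were 2.34 ± 0.70 (SE) with shSIRT3-1 and 3.82 ± 0.70 with shSIRT3-2. It reached 1 CPM in 1 shCTRL library and in 3 libraries of each hairpin, so it passed the filter only with its knockdown values. These log2 FCs are therefore a description with no test, although IFI27 is among the members counted as called above. The shSIRT3-1 call was lost in 4 of 17 alternatives, among them the fit with no filter, and the shSIRT3-2 call in none.

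IFI6, whose product is found in mitochondria and the endoplasmic reticulum, was at 146, 27.4 and 25.6 CPM with shCTRL, 123, 116 and 186 with shSIRT3-1 and 255, 276 and 359.7 with shSIRT3-2. Every shSIRT3-2 library exceeded every control, and shSIRT3-1 overlapped shCTRL replicate 1 (log2 FC = 2.65 ± 0.55, limma BH-adjusted p = 0.0065 with shSIRT3-2). IFIT2, which binds RNA and slows translation, was at 14.1, 3.02 and 4.42 CPM with shCTRL, 9.41, 9.64 and 16.9 with shSIRT3-1 and 21.7, 24.2 and 27.1 with shSIRT3-2, again with shSIRT3-2 above all controls (log2 FC = 2.06 ± 0.46, limma BH-adjusted p = 0.0092). ISG15 was at 331, 81.3 and 52.5 CPM with shCTRL, 256, 228 and 361 with shSIRT3-1 and 340.4, 382 and 365 with shSIRT3-2, and its shSIRT3-2 libraries lay above shCTRL replicate 1 by a small margin (log2 FC = 1.69 ± 0.53, limma BH-adjusted p = 0.036). HERC6 (log2 FC = 1.97 ± 0.53, limma BH-adjusted p = 0.02) and the ISG15 protease gene USP18 (log2 FC = 1.75 ± 0.58, limma BH-adjusted p = 0.043) were also called with shSIRT3-2. USP18 was at 9.78, 2.17 and 1.38 CPM with shCTRL, 3.49, 3.17 and 5.58 with shSIRT3-1 and 8.45, 10.1 and 14.6 with shSIRT3-2, so its knockdown and control libraries overlapped.

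SAMD9L, an antiviral factor that acts on translation, was at 89.1, 44.6 and 31.3 CPM with shCTRL, 79.0, 77.1 and 105 with shSIRT3-1 and 113, 124 and 173 with shSIRT3-2, with shSIRT3-2 above all controls (log2 FC = 1.43 ± 0.33, limma BH-adjusted p = 0.0096). STAT2, which binds IRF9, had a smaller difference, with 92.6, 55.7 and 54.2 CPM in controls and 108, 122 and 150.2 CPM with shSIRT3-2 (log2 FC = 0.94 ± 0.20, limma BH-adjusted p = 0.0072). IFI35 was at 39.3, 13.4 and 12.1 CPM in controls and 38.8, 42.3 and 56.1 with shSIRT3-2, which overlapped (log2 FC = 1.28 ± 0.37, limma BH-adjusted p = 0.027). ISG20, a 3′ to 5′ exonuclease of RNA, was the only member called lower in this line. It was at 48.2, 38.4 and 26.5 CPM with shCTRL, 18.5, 21.3 and 19.3 with shSIRT3-1 and 18, 19.6 and 22.5 with shSIRT3-2. All 6 knockdown libraries lay below all 3 controls (log2 FC = -0.89 ± 0.19 and -0.87 ± 0.19, limma BH-adjusted p = 0.0064 and 0.0074).

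The summed level of the members was 3137, 1311 and 950.4 CPM with shCTRL, 2180, 2139 and 2764 with shSIRT3-1 and 3064, 3415 and 3941 with shSIRT3-2, so shCTRL replicate 1 lay above every shSIRT3-1 library. Without that library, with 2 controls left, 29 of 37 members were called higher and 1 lower with shSIRT3-1 (beside 4.54% and 10.9% of all genes), and 33 higher and 1 lower with shSIRT3-2 (5.19% and 8.02%). Without RSAD2 these were 28 and 32 of 36 higher. RSAD2 then had log2 FCs of 2.61 ± 0.38 and 3.73 ± 0.38. The shCTRL replicate 1 library had 48506485 reads on genes and 9.99 CPM of SIRT3, both within the range of the other libraries, and its part in the result beyond these values was not tested. The median log2 FC of the members with shSIRT3-2 was 1.82 without shCTRL replicate 1, 1.17 without replicate 2 and 0.76 without replicate 3, and with shSIRT3-1 it was 1.19, 0.45 and 0.20. Without shCTRL replicate 2 or replicate 3, 9 of 37 members were called with shSIRT3-2, beside 11.7% and 15.6% of all genes. Without shSIRT3-2 replicate 2 or 3 the count was 13 or 11, beside 15.2% and 13.9%, and the median was 1.33 or 1.13. The 5 B-cell markers summed to 2142, 2156 and 1536 CPM with shCTRL and 1322, 1356 and 895 CPM with shSIRT3-2, and the part of this difference in the result was not tested.

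**Figure D3:**
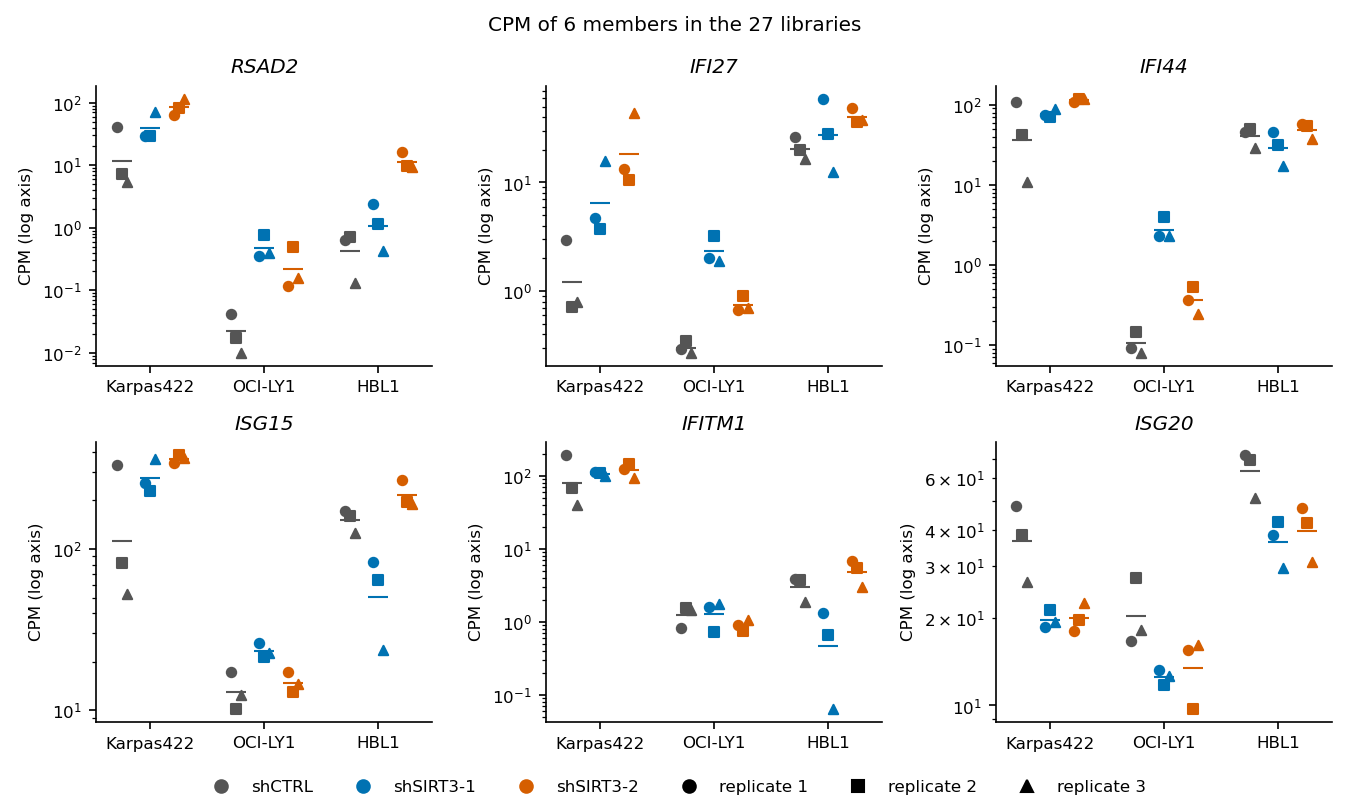
CPM (log axis) of RSAD2, IFI27, IFI44, ISG15, IFITM1 and ISG20 in the 27 libraries, by line and hairpin, with a symbol for each replicate number and a line at the mean on the log2(CPM + 0.1) scale. ISG20 is lower in all 18 knockdown libraries than in the controls of its line, IFI44 is at 0.147 CPM or less in OCI-LY1 controls and at 2.28 CPM or more with shSIRT3-1, and IFITM1 falls to 0.0630 CPM in HBL1 shSIRT3-1 replicate 3.

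In OCI-LY1 more members were called with shSIRT3-1 than with shSIRT3-2. Of the 39 members, 30 were tested. The 9 members RSAD2, CMPK2, IFIT1, IFIT2, IFIT3, OASL, IFITM3, HERC5 and USP18 did not reach 1 CPM in 3 libraries. Another 6 (IFI27, IFI44, IFI44L, DDX60, HERC6 and XAF1) were tested only because they reached it in the shSIRT3-1 libraries, so they had to differ and their values are a description with no test. Of the 24 members left, 9 were called higher with shSIRT3-1 (EPSTI1, IFI35, IFI6, IRF9, ISG15, MX1, OAS1, OAS2 and SAMD9L) and none lower, beside 2.04% and 2.45% of all genes (median log2 FC 0.58; 0.02 over all genes). With shSIRT3-2, 0 of the 24 were called (limma), beside 2.15% higher and 4.26% lower of all genes, and the median log2 FC was -0.16 (0.01 over all genes). Over all 30 tested members, those 6 included, 8 had an unadjusted limma p under 0.05, beside 3238 of all 11205 tested genes. With those 6 included, the calls were 15 of 30 with shSIRT3-1 and 2 of 30 with shSIRT3-2 (IFI27 and IFI44), all higher, and these counts are used in the fits that leave out a library.

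IFI44, a cytoplasmic protein gene of the interferon response, was at 0.0931, 0.147 and 0.0796 CPM with shCTRL, 2.28, 4.03 and 2.28 with shSIRT3-1 and 0.366, 0.529 and 0.245 with shSIRT3-2. Neither hairpin overlapped the controls, nor did they overlap each other (log2 FC = 3.80 ± 0.32 (SE) with shSIRT3-1 and 1.19 ± 0.32 with shSIRT3-2). Its neighbour IFI44L was at 0.114, 0.502 and 0.109 CPM with shCTRL, 2.29, 3.90 and 1.52 with shSIRT3-1 and 0.416, 0.46 and 0.196 with shSIRT3-2, with only shSIRT3-1 clear of the controls (log2 FC = 3.06 ± 0.48 (SE)). IFI27 was at 0.29, 0.346 and 0.269 CPM with shCTRL, 2.03, 3.22 and 1.89 with shSIRT3-1 and 0.673, 0.901 and 0.696 with shSIRT3-2. The ranges were separate for all 3 hairpins (log2 FC = 2.59 ± 0.25 (SE) and 1.09 ± 0.25). DDX60, a helicase that assists RNA sensing, was at 0.114, 0.208 and 0.199 CPM with shCTRL and 1.14, 3.14 and 1.15 CPM with shSIRT3-1, with no overlap (log2 FC = 2.67 ± 0.47 (SE)).

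Members among the 24 are given with their tests. ISG15 was at 17.4, 10.2 and 12.4 CPM with shCTRL, 26.1, 21.3 and 22.6 with shSIRT3-1 and 17.3, 13.0 and 14.6 with shSIRT3-2, and the shSIRT3-1 libraries lay above the rest (log2 FC = 0.84 ± 0.19, limma BH-adjusted p = 0.032). OAS2, which makes the activator of RNase L, was at 15.6, 11.8 and 11.8 CPM with shCTRL, 20.3, 21.3 and 19.4 with shSIRT3-1 and 12.2, 11.2 and 10.8 with shSIRT3-2. SAMD9L was at 10.9, 9.46 and 8.07 CPM with shCTRL, 17.3, 24.9 and 17.6 with shSIRT3-1 and 6.09, 7.01 and 4.57 with shSIRT3-2. Both were called with shSIRT3-1 (log2 FC = 0.65 ± 0.12 and 1.05 ± 0.20, limma BH-adjusted p = 0.021 and 0.02). For SAMD9L the shSIRT3-2 libraries were below the controls without a call (log2 FC = -0.69 ± 0.20, limma BH-adjusted p = 0.055). With the pairing in the model it was called lower (log2 FC = -0.69 ± 0.14, adjusted p = 0.02). IFI35 was also called with shSIRT3-1 (log2 FC = 0.69 ± 0.16, limma BH-adjusted p = 0.033), as were MX1, OAS1, IFI6, IRF9 and EPSTI1. Untested RSAD2 was at 0.0414, 0.0173 and 0.00995 CPM with shCTRL, 0.354, 0.771 and 0.401 with shSIRT3-1 and 0.119, 0.49 and 0.157 with shSIRT3-2, with every knockdown library above every control.

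The summed level in OCI-LY1 was 413, 361 and 354 CPM with shCTRL, 527, 549.6 and 514 with shSIRT3-1 and 364, 352 and 326 with shSIRT3-2, so shSIRT3-1 stood above the rest. The number of calls moved with single libraries, for all genes as well as for the members. Leaving out a shSIRT3-1 library also took the 6 members above out of the test, so that 24 were tested. Without shSIRT3-1 replicate 2 or replicate 3, 0 of 24 members were called with shSIRT3-1, beside 0.701% and 0.332% of all genes in either direction, and their median log2 FC was 0.57 and 0.62. Without shSIRT3-1 replicate 1, 4 of 24 were called, beside 1.88% of all genes (median 0.57). Without shCTRL replicate 3, 5 of 30 were called, beside 1.27% of all genes (median 0.72). With all libraries, 4.5% of all genes were called. With shSIRT3-2 the count went from 2 to 0 or 1 in each fit that left out a library of this line. The 1 call without shSIRT3-1 replicate 2 was a lower one among the 24 tested, and IFI27 and IFI44 were not tested there.

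**Figure D4:**
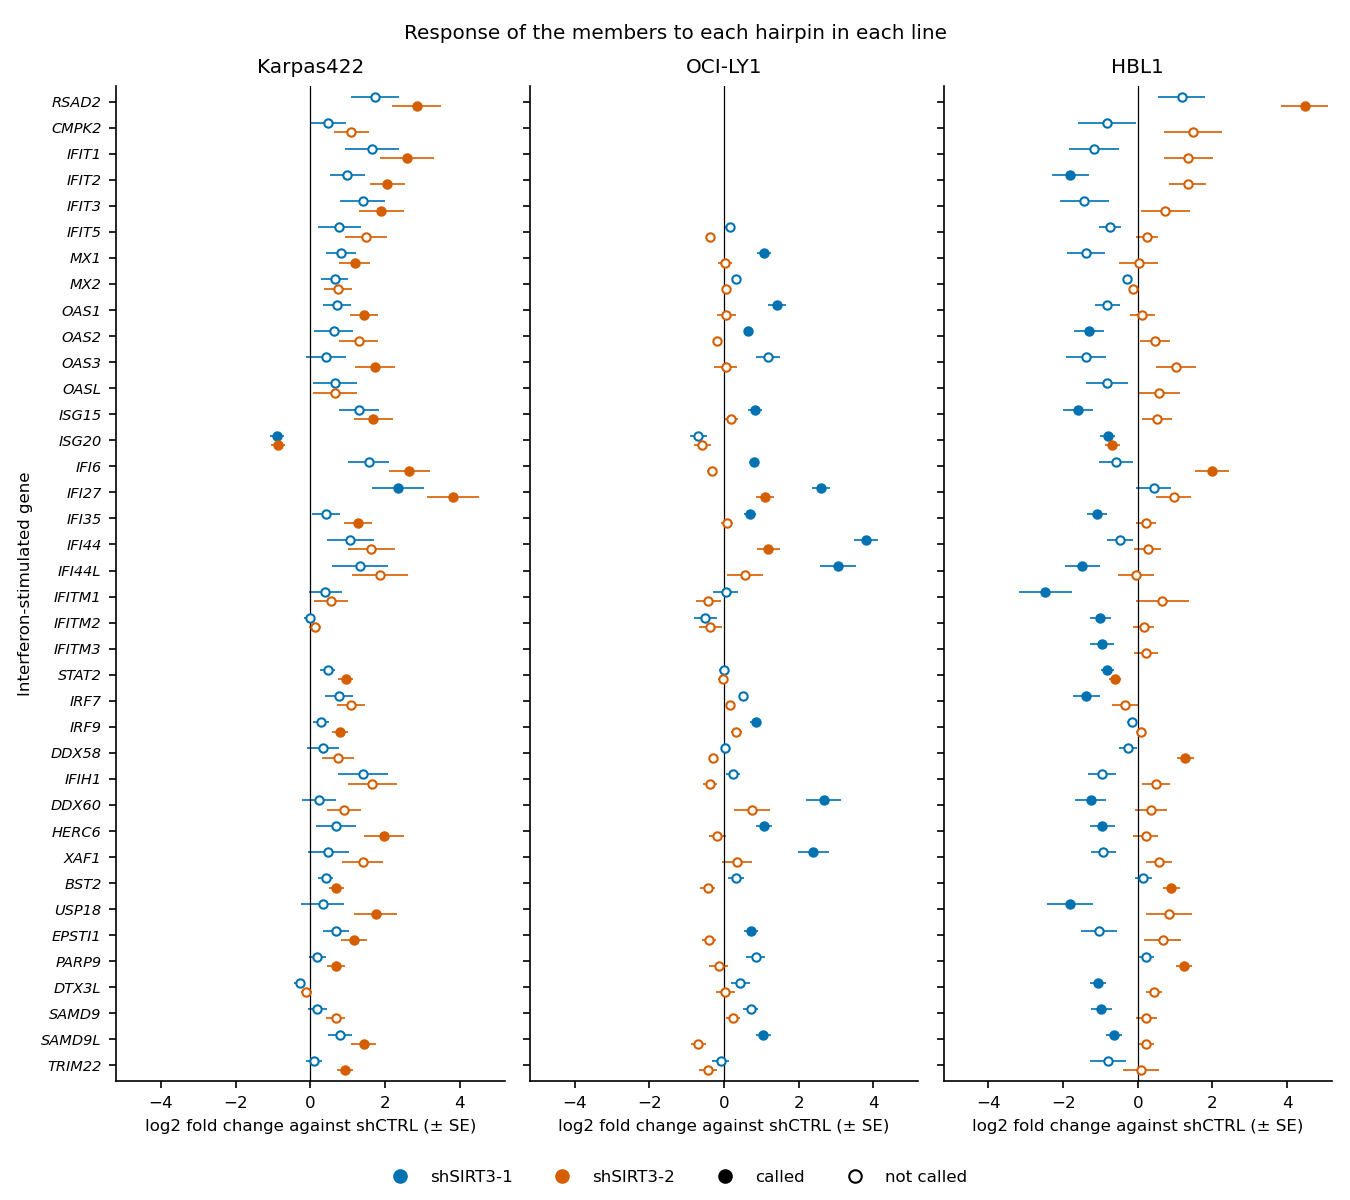
Log2 FC against shCTRL (x axis, ± SE) of each tested member with shSIRT3-1 (blue) and shSIRT3-2 (orange) in the 3 lines, filled where called. The 6 OCI-LY1 members admitted to the test by their shSIRT3-1 values (IFI27, IFI44, IFI44L, DDX60, HERC6 and XAF1) are drawn as a description. ISG20 is below 0 with both hairpins in all 3 lines, and 17 members are called below 0 with shSIRT3-1 in HBL1.

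In HBL1 the calls with shSIRT3-1 were all lower, while most of the fewer calls with shSIRT3-2 were higher. With shSIRT3-1, 17 of 38 tested members were called lower and none higher, beside 18.8% and 8.83% of all genes (median log2 FC -0.95; -0.11 over all genes). With shSIRT3-2, 5 were called higher (RSAD2, IFI6, BST2, DDX58 and PARP9) and 2 lower (ISG20 and STAT2), beside 7.51% and 16% of all genes (median log2 FC 0.45; -0.06 over all genes). Without RSAD2, 4 of 37 were called higher (median 0.44). The replicate numbers paired the libraries of this line (the check stands with the methods). With the pairing in the model, 29 members were called lower and 1 higher (RSAD2) with shSIRT3-1 (21.3% and 10.2% of all genes), and 13 higher and 2 lower with shSIRT3-2 (8.87% and 18.4%). Without RSAD2 the paired counts were 29 lower and none higher with shSIRT3-1 and 12 higher and 2 lower with shSIRT3-2. Among those called lower with shSIRT3-1 in the paired model alone were MX1 (log2 FC = -1.39 ± 0.21), OAS3 (-1.39 ± 0.22) and IFIT3 (-1.43 ± 0.24). IFIT1 (log2 FC = 1.35 ± 0.25) and IFIT2 (1.33 ± 0.32) were called higher with shSIRT3-2 in that model alone.

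With shSIRT3-1 the largest fall was that of IFITM1, at 3.86, 3.73 and 1.88 CPM with shCTRL, 1.32, 0.645 and 0.063 with shSIRT3-1 and 6.77, 5.35 and 3.02 with shSIRT3-2. No shSIRT3-1 library overlapped a control, and 2 of 3 shSIRT3-2 libraries were above all controls (log2 FC = -2.48 ± 0.71, limma BH-adjusted p = 0.023 with shSIRT3-1). Its neighbour IFITM2 (log2 FC = -1.0 ± 0.29, limma BH-adjusted p = 0.024) was called lower too. IFITM3, also counted as lower, reached 1 CPM in 2 shCTRL, 0 shSIRT3-1 and 3 shSIRT3-2 libraries. It entered the test only with its shSIRT3-2 values, so its log2 FC of -0.95 ± 0.32 (SE) is a description. USP18 was at 14.8, 13.8 and 4.32 CPM with shCTRL, 5.02, 3.35 and 1.10 with shSIRT3-1 and 24, 19.3 and 11.1 with shSIRT3-2, and shSIRT3-1 replicate 1 lay above shCTRL replicate 3 (log2 FC = -1.81 ± 0.62, limma BH-adjusted p = 0.044). ISG15 was at 173, 159.8 and 125 CPM with shCTRL, 83.3, 64.0 and 23.5 with shSIRT3-1 and 266, 195 and 190.0 with shSIRT3-2. These ranges were separate for all 3 hairpins (log2 FC = -1.59 ± 0.41, limma BH-adjusted p = 0.014 with shSIRT3-1, and 0.51 ± 0.41, adjusted p = 0.36 with shSIRT3-2). HERC6 was called lower as well (log2 FC = -0.95 ± 0.33, limma BH-adjusted p = 0.047), a call lost in 12 of 18 alternatives. Of the ISG15 conjugation genes in the pathway list, UBE2L6 was called lower (log2 FC = -0.80 ± 0.23, limma BH-adjusted p = 0.026) and UBA7 was not called (log2 FC = -0.33 ± 0.23, limma BH-adjusted p = 0.27).

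IFIT2 was at 5.35, 4.32 and 1.35 CPM with shCTRL, 1.28, 0.802 and 0.558 with shSIRT3-1 and 11.7, 6.15 and 7.46 with shSIRT3-2. No shSIRT3-1 library was as high as the lowest control (log2 FC = -1.80 ± 0.50, limma BH-adjusted p = 0.02). OAS2 was at 204, 195 and 116 CPM with shCTRL, 104, 81.3 and 35.1 with shSIRT3-1 and 284, 255 and 168 with shSIRT3-2. It showed the same separation (log2 FC = -1.32 ± 0.40, limma BH-adjusted p = 0.029). IFI35 was at 54.2, 53.5 and 34.6 CPM with shCTRL, 28.5, 22.1 and 16.0 with shSIRT3-1 and 68.9, 57.3 and 41.1 with shSIRT3-2 (log2 FC = -1.10 ± 0.27, limma BH-adjusted p = 0.012). IFI44L, DDX60 and SAMD9L were called lower with log2 FCs of -1.49 ± 0.47, -1.26 ± 0.42 and -0.64 ± 0.22 (limma BH-adjusted p = 0.034, 0.041 and 0.045). IRF7, the factor that drives interferon alpha genes, DTX3L and SAMD9 were called lower as well.

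Fewer members were called higher with shSIRT3-2 in HBL1. RSAD2 was at 0.64, 0.723 and 0.131 CPM with shCTRL, 2.37, 1.17 and 0.423 with shSIRT3-1 and 16.4, 9.59 and 9.48 with shSIRT3-2, with every shSIRT3-2 library far above every control (log2 FC = 4.47 ± 0.63 (SE)). IFI6 was at 79.3, 62.1 and 43.9 CPM with shCTRL, 70.6, 51.7 and 17.6 with shSIRT3-1 and 277, 202 and 239.7 with shSIRT3-2, again without overlap between shSIRT3-2 and the controls (log2 FC = 1.98 ± 0.45, limma BH-adjusted p = 0.01). DDX58, which encodes the sensor RIG-I, was at 18.4, 16.0 and 10.4 CPM with shCTRL, 14.6, 11.5 and 10.5 with shSIRT3-1 and 43.5, 33.8 and 29.6 with shSIRT3-2 (log2 FC = 1.27 ± 0.23, limma BH-adjusted p = 0.0039), with shSIRT3-2 above the rest.

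ISG20 and STAT2 fell with both hairpins in HBL1. ISG20 was at 72.1, 69.5 and 51.3 CPM with shCTRL, 38.5, 42.5 and 29.5 with shSIRT3-1 and 47.5, 42.3 and 30.9 with shSIRT3-2. All knockdown libraries were below all controls (log2 FC = -0.80 ± 0.21 and -0.68 ± 0.21, limma BH-adjusted p = 0.015 and 0.031). STAT2 was at 117, 121 and 174 CPM with shCTRL, 81.4, 84.5 and 66.1 with shSIRT3-1 and 96.5, 90.7 and 79.3 with shSIRT3-2. Here too there was no overlap (log2 FC = -0.81 ± 0.17 and -0.61 ± 0.17, adjusted p = 0.0058 and 0.023). In the shCTRL libraries STAT2 was highest in replicate 3, unlike most other members. Its call was lost in 1 of 18 alternatives with shSIRT3-1 and 6 of 18 with shSIRT3-2 (log2 FC from -0.71 to -0.35). Without the libraries numbered 3 it was lost with both hairpins. The ISG20 calls were lost in 2 and 4 of 18.

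The summed level in HBL1 was 2967, 2889 and 1859 CPM with shCTRL, 1864, 1488 and 781 with shSIRT3-1 and 3957, 3397 and 2604 with shSIRT3-2. The 3 shSIRT3-1 sums overlapped shCTRL replicate 3 by a narrow margin, and the same number gave the lowest sum in each group. Without the 3 libraries numbered 3, a choice made after seeing the data, 26 members were called lower and 2 higher (RSAD2 and IFI27) with shSIRT3-1, and 11 higher and 1 lower with shSIRT3-2 (beside 20.3%, 8.7%, 8.44% and 19.2% of all genes). Without RSAD2 these were 26 lower and 1 higher, and 10 higher and 1 lower. Without shCTRL replicate 1 or shCTRL replicate 2 alone, 3 and 2 members were called with shSIRT3-1, beside 21.2% and 19.4% of all genes in either direction (27.7% with all libraries), and the median log2 FC was -0.81 in both fits. Without shSIRT3-2 replicate 2, 11 were called, beside 25.4% of all genes (median -0.95). With shSIRT3-2, the 7 calls became 11 without shSIRT3-1 replicate 3, beside 28.6% of all genes (median 0.45). The B-cell markers summed to 1711, 1753 and 2121 CPM with shCTRL, 2037, 2127 and 1803 with shSIRT3-1 and 1459, 1529 and 1517 with shSIRT3-2, and their part in the result was not tested.

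**Figure D5:**
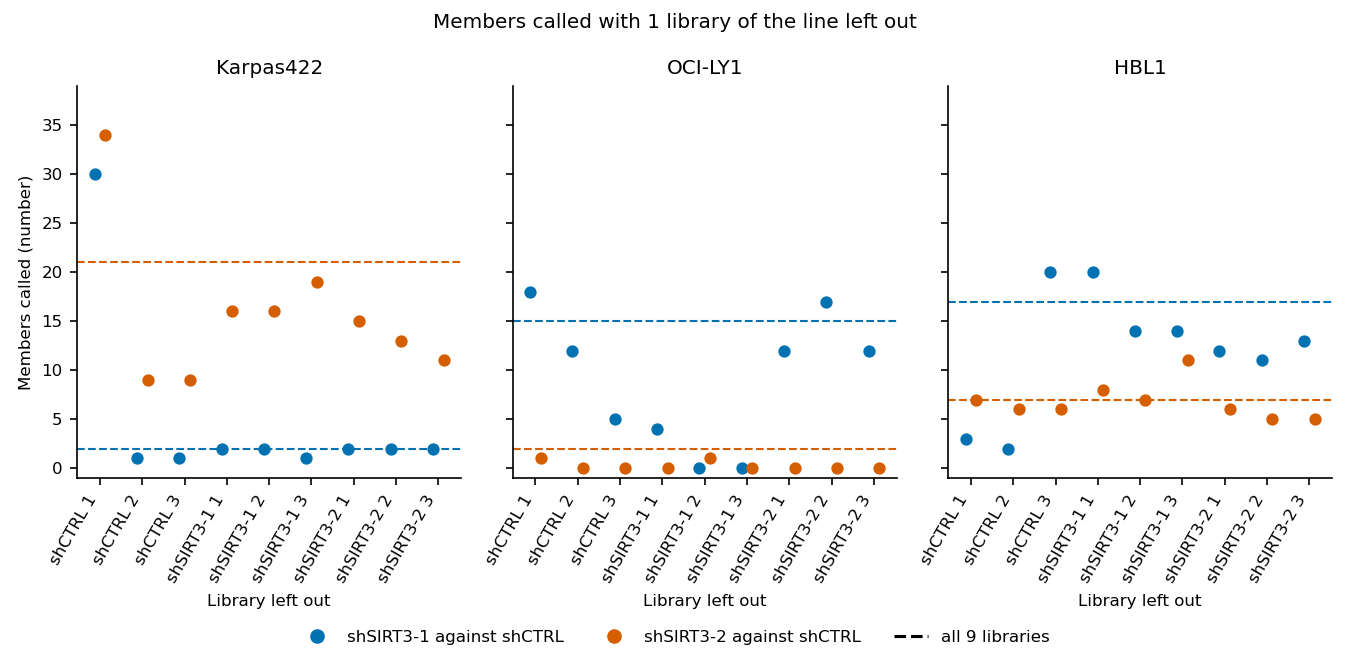
Number of members called (y axis) when the library named on the x axis is left out of the fit of its line, with shSIRT3-1 in blue and shSIRT3-2 in orange, and dashed lines for all 9 libraries; the counts include RSAD2 where it was tested. In Karpas422 the counts reach 30 and 34 without shCTRL replicate 1, in OCI-LY1 the shSIRT3-1 count falls to 0 without shSIRT3-1 replicate 2 or 3, and in HBL1 it falls to 3 and 2 without shCTRL replicate 1 or 2.

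The hairpins were also compared with each other. In HBL1, 28 of 38 members (27 of 37 without RSAD2) were higher with shSIRT3-2 than with shSIRT3-1 and none lower, beside 14.9% and 13.1% of all genes (median log2 difference 1.40, beside 0.04 over all genes). The 28 include IFITM3, which was tested only because of its shSIRT3-2 values. In OCI-LY1, 14 of 30 were lower with shSIRT3-2 and none higher, beside 2.49% and 2.19% of all genes (median -0.70; -0.03 over all genes). The 14 include the 6 members admitted by their shSIRT3-1 values, and of the other 24, 8 were lower (median -0.56). In Karpas422, 1 of 37 was higher, the ubiquitin ligase gene TRIM22 (log2 FC = 0.84 ± 0.22, limma BH-adjusted p = 0.022), and none lower, beside 6.87% and 4.67% of all genes (median 0.54; 0.08 over all genes). DTX3L (log2 FC = 1.5 ± 0.21, limma BH-adjusted p = 0.0014), DDX58 (log2 FC = 1.54 ± 0.23, limma BH-adjusted p = 0.0022) and IFIT2 (log2 FC = 3.14 ± 0.50, limma BH-adjusted p = 0.0025) were among the members called in HBL1. SAMD9L (log2 FC = -1.74 ± 0.20, limma BH-adjusted p = 0.0022) and IFI6 (log2 FC = -1.11 ± 0.13, limma BH-adjusted p = 0.0023) were among those in OCI-LY1. SIRT3 itself was left at lower levels by shSIRT3-1 in every line. In Karpas422 it was at 2.44 to 2.79 CPM with shSIRT3-1 and 4.41 to 6.24 CPM with shSIRT3-2. In OCI-LY1 these ranges were 1.06 to 2.23 and 4.06 to 6.17 CPM, and in HBL1 2.00 to 2.39 and 2.84 to 3.82 CPM. The part of the depth of knockdown in these differences was not tested. In HBL1 the count was 14 without shSIRT3-2 replicate 1 or without replicate 2, beside 17.6% and 20.2% of all genes (27.9% with all libraries). In OCI-LY1 it was 6, 7 and 6 of 24 tested members without shSIRT3-1 replicate 1, 2 or 3, beside 2.36%, 3.86% and 1.85% of all genes. It was 9 and 8 of 30 without shSIRT3-2 replicate 1 or 3, beside 2.82% and 2.45% (4.68% with all libraries). In Karpas422 it was 9 without shCTRL replicate 1 and 2 without shCTRL replicate 3, beside 10.6% and 11.7% of all genes (11.5% with all libraries). It was 0 without shSIRT3-1 replicate 1, shSIRT3-1 replicate 3 or shSIRT3-2 replicate 2, beside 7.61%, 8.23% and 11.3%.

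Over the 6 comparisons of a hairpin with shCTRL, 10 of 38 members were called higher in one and lower in another, beside 2.34% of all genes. DDX60 and IFI44L are among the 10 only through OCI-LY1 calls to which their shSIRT3-1 values admitted them, so for these genes it is a description. DDX60, HERC6, IFI35, IFI44L, ISG15, OAS2 and SAMD9L, 7 in all, were called higher in OCI-LY1 and lower in HBL1 with the same hairpin, shSIRT3-1, beside 0.181% of genes tested in both. Of these, DDX60, HERC6 and IFI44L entered the OCI-LY1 test only through their shSIRT3-1 values, and IFI35, ISG15, OAS2 and SAMD9L did not. In OCI-LY1 the calls of IFI35, ISG15, OAS2 and SAMD9L were lost in 8, 9, 6 and 4 of 17 alternatives. With shSIRT3-1 in HBL1, calls were lost in 8 of 18 alternatives for DDX60, 12 for HERC6, 1 for IFI35 and 6 for IFI44L. They were lost in 2 for ISG15, 2 for OAS2 and 11 for SAMD9L. HERC6, IFI35, IFIT2, ISG15, SAMD9L, STAT2 and USP18, also 7, were higher in Karpas422 with shSIRT3-2 and lower in HBL1 with shSIRT3-1, beside 0.42% of genes tested in both, and STAT2 was also lower in HBL1 with shSIRT3-2. The Karpas422 calls of ISG15 and USP18 were lost in 9 of 17 alternatives each, that of IFI35 in 5 and that of HERC6 in 3. Those of IFIT2, SAMD9L and STAT2 were lost in none. In HBL1 with shSIRT3-1 the call of USP18 was lost in 9 of 18 and that of IFIT2 in 2. A limma F test over all interaction terms of line and hairpin was run for each gene, and it does not test these opposite pairs alone. Its BH-adjusted p was 8.3e-05 for SAMD9L, 0.00078 for STAT2, 0.0012 for DDX60 and 0.0030 for ISG15, and 41.8% of all genes passed it. The members that did not pass this test were CMPK2, TRIM22, IFITM2, OASL, MX2 and ISG20. CMPK2, IFIH1, IFIT5, MX2 and OASL, 5 in all, were called in none of the 6 comparisons, where 51.4% of all genes were called in none. With the pairing in the model, all of them but MX2 were called lower in HBL1 with shSIRT3-1, and CMPK2 was also called higher there with shSIRT3-2. MX2, a GTPase related to MX1, had values of 66.0 to 69.6 CPM with shCTRL, 50.4 to 63.7 with shSIRT3-1 and 58.9 to 63.3 with shSIRT3-2 in HBL1, a narrower range than that of MX1, which went from 304 to 569 CPM with shCTRL to 75.9 to 306 with shSIRT3-1.

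ISG20 was the only member whose knockdown libraries lay below the controls in all 3 lines. In OCI-LY1 it was at 16.6, 27.4 and 18.1 CPM with shCTRL, 13.2, 11.8 and 12.6 with shSIRT3-1 and 15.5, 9.71 and 16.2 with shSIRT3-2. No call was made (log2 FC = -0.69 ± 0.22 and -0.58 ± 0.22, limma BH-adjusted p = 0.088 and 0.12), but all knockdown libraries were below all controls. Such a separation of all 18 knockdown libraries held for 1 of 38 members and 1.2% of all genes, while no member, and 1.02% of all genes, had all 18 above every control of the line. Its interaction test had a BH-adjusted p of 0.93, which does not show that its response was equal in the lines.

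Some families are followed here across the lines. Of the 4 OAS genes, OAS1 and OAS3 were called higher in Karpas422 with shSIRT3-2 (log2 FC = 1.43 ± 0.37 and 1.74 ± 0.53), and OAS2 and OASL were not (log2 FC = 1.29 ± 0.53 and 0.65 ± 0.59). In OCI-LY1, OAS1 (log2 FC = 1.41 ± 0.24, limma BH-adjusted p = 0.016) and OAS2 were called higher with shSIRT3-1. In HBL1, OAS2 was called lower with shSIRT3-1. IFIT1, IFIT2 and IFIT3 were called higher with shSIRT3-2 in Karpas422 (log2 FC = 2.58 ± 0.72, 2.06 ± 0.46 and 1.90 ± 0.60). All 4 IFIT genes were higher with shSIRT3-2 than with shSIRT3-1 in HBL1. Of the transcription factors, STAT2 and IRF9 were called higher in Karpas422 with shSIRT3-2 (log2 FC = 0.80 ± 0.21, limma BH-adjusted p = 0.017 for IRF9). IRF9 was also called higher in OCI-LY1 with shSIRT3-1 (log2 FC = 0.84 ± 0.15, limma BH-adjusted p = 0.018). In HBL1 IRF9 stayed within 35 to 50.9 CPM over all 9 libraries. PARP9 rose with shSIRT3-2 in HBL1, from 61.7, 56.2 and 38.0 CPM to 135, 115 and 112 CPM (log2 FC = 1.24 ± 0.20, limma BH-adjusted p = 0.0023). DTX3L, its partner in a ubiquitin ligase complex and its neighbour across a shared start region, was at 122, 111 and 84.7 CPM with shCTRL and 62.6, 55 and 36.2 CPM with shSIRT3-1 (log2 FC = -1.06 ± 0.21, limma BH-adjusted p = 0.0042).

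The interferon pathway around these genes was read from a further list of 84 genes, of which 53 to 66 were tested in a fit. The interferons themselves were all under 1 CPM. Of 10 interferon genes listed, 2 were at 0 in every library and the highest value was that of IFNB1, at 0.335, 0.409 and 0.219 CPM in HBL1 with shCTRL, beside 0.0466, 0.00871 and 0.018 with shSIRT3-1 and 0.0878, 0.0166 and 0.0282 with shSIRT3-2. All 6 HBL1 knockdown libraries were below the 3 controls, but IFNB1 did not reach the 1 CPM of the filter and was not tested. The controls lay above the 3-read level of 0.0249 to 0.0472 CPM, and some knockdown libraries did not. IFNAR2, a chain of the type I receptor, was called higher in Karpas422 with both hairpins, at 21.0, 20.9 and 23.2 CPM with shCTRL, 39.4, 35.8 and 55.2 with shSIRT3-1 and 34.8, 34.1 and 40.8 with shSIRT3-2, without overlap. Its log2 FCs were 0.97 ± 0.15 and 0.74 ± 0.15 (limma BH-adjusted p = 0.0015 and 0.0057).

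SOCS1, an inhibitor of JAK signaling, went in opposite directions with the hairpins in Karpas422, at 4.16, 2.94 and 3.09 CPM with shCTRL, 8.66, 9.64 and 15.7 with shSIRT3-1 and 1.79, 2.13 and 0.813 with shSIRT3-2. It was called higher with shSIRT3-1 (log2 FC = 1.67 ± 0.33, limma BH-adjusted p = 0.0051) and lower with shSIRT3-2 (log2 FC = -1.14 ± 0.33, limma BH-adjusted p = 0.028). MYD88, the adaptor of most Toll-like receptors, was called higher in Karpas422 with both hairpins (log2 FC = 0.91 ± 0.20 and 1.36 ± 0.20, limma BH-adjusted p = 0.0076 and 0.0014). TLR7, a sensor of single-stranded RNA, fell in HBL1 with both, from 6.15, 6.71 and 4.95 CPM to 1.02, 1.41 and 0.504 and 1.58, 2.04 and 1.02 CPM (log2 FC = -2.57 ± 0.35 and -1.91 ± 0.35, adjusted p = 0.00093 and 0.004). NMI, a partner of IFI35, fell in HBL1 with both hairpins (log2 FC = -1.55 ± 0.13 and -0.71 ± 0.13), and LGALS3BP rose there (log2 FC = 1.05 ± 0.29 and 1.60 ± 0.29). CXCL11, a chemokine gene induced by interferon, fell in Karpas422 from 1.90, 1.82 and 1.59 CPM to 0.257, 0.197 and 0.0849 CPM with shSIRT3-1 and 0.0813, 0.0742 and 0.0424 CPM with shSIRT3-2, against the direction of most members in that line. It entered the Karpas422 test only because its 3 control libraries reached 1 CPM, so it had to differ. Its log2 FCs of -2.79 ± 0.28 and -3.50 ± 0.28 (SE) are a description with no test. CXCL11 is among the genes counted as lower in Karpas422 below. CNP and TRIM14 rose and IRF2 and LAMP3 fell in Karpas422 with both hairpins, and APOL6 fell in OCI-LY1 with both (log2 FC = -0.82 ± 0.18 and -1.34 ± 0.18). Over the whole list, 5 of 59 tested genes were called higher (8.47%, beside 4.45% of all genes) and 6 lower (10.2%, beside 11.5%) in Karpas422 with shSIRT3-1, and 9 higher (15.3%, beside 5.55%) and 6 lower (10.2%, beside 9.44%) with shSIRT3-2. In OCI-LY1, 2 of 53 were higher (3.77%, beside 2.04%) and 2 lower (3.77%, beside 2.45%) with shSIRT3-1, and 0 higher (beside 2.15%) and 4 lower (7.55%, beside 4.26%) with shSIRT3-2. In HBL1, 3 of 63 were higher (4.76%, beside 8.83%) and 17 lower (27%, beside 18.8%) with shSIRT3-1, and 7 higher (11.1%, beside 7.51%) and 7 lower (11.1%, beside 16%) with shSIRT3-2. Medians of log2 FC over the list went from -0.50 in HBL1 with shSIRT3-1 to 0.28 in Karpas422 with shSIRT3-2.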

How the data were processed

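RNA for 27 libraries (3 lines, 3 hairpins, 3 replicates, day 8) was prepared by the authors with TRIzol and an RNeasy column. It was made into TruSeq libraries from random-primed cDNA and sequenced as paired ends. Reads were aligned with STAR to hg19 and counted over RefSeq genes with Rsubread. These steps are from the study's methods and the submitters' processing notes, and the study does not state whether the libraries kept strand. The deposited values, named FPKM, were CPM (CPM is a read count scaled to a common library total): in each library they were whole multiples of 1 step, with 100% of values whole within a tolerance of 0.01, and the step was the same for all genes. In OCI-LY1 shCTRL replicate 3 and shSIRT3-2 replicate 1 the step was near the last decimal written, so reads recovered there are less certain. CPM is not per length, so levels were not compared between genes. The CPM of the listed genes summed to 40.3% to 45.6% of the total the authors divided by, and 3 reads were worth 0.0249 to 0.0472 CPM. This 3-read level covers counting error only.

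CPM values were tested on log2(CPM + 0.1) with limma 3.58.1 (trend, R 4.3.3) after a filter of at least 1 CPM in at least 3 of the fitted libraries. A fold change on this scale understates that of low genes. The fit over the 3 lines had line as an additive term, as in the study, and further fits took each line alone, the interaction of line and hairpin, and shCTRL cells alone. P-values were adjusted over all tested genes by the Benjamini-Hochberg method, and a gene was called at FC above 1.5 and adjusted p under 0.05. The members and lists were chosen with earlier results of these data known. Named were members called with both hairpins in a line, members called in opposite directions, the 3 called members with the largest log2 FC for each line and hairpin, and pathway genes called with both hairpins in the same direction in a line. Other genes named (IFNB1, SOCS1, BST2, IFIH1, MX1, MX2, the further OAS, IFIT and IFITM genes, IRF7, IRF9, TRIM22, PARP9, DTX3L and SIRT3) were chosen after their values were seen. Some genes of the marker and pathway lists are not reported here and were left out of the counts and sums.

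Deviations from the group means were correlated between libraries with the same number in a line. They passed 0.1 in 9 of 9 pairs in HBL1 (mean 0.40), 9 of 9 in OCI-LY1 (mean 0.27) and 8 of 9 in Karpas422 (mean 0.29, lowest 0.014). The numbers were taken to pair the libraries where every pair passed, on the data alone. Pairs with different numbers passed 0.1 in 6 of 18 in HBL1 (highest 0.35), 1 of 18 in OCI-LY1 and 5 of 18 in Karpas422. HBL1 shCTRL replicate 2 correlated at 0.27 and 0.22 with libraries of its number and at 0.28 and 0.30 with those numbered 1. The pairing of numbers 1 and 2 is therefore uncertain there. Alternatives were other pseudocounts, no filter, quantile and median-ratio scaling, edgeR 4.0.16 on recovered reads, a replicate block, 1 fit of 9 group means and leaving out each library. The fits were tested on simulated data. No 2 libraries held identical values. Sequences are from RefSeq tables and positions from GRCh37.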

Additional observations from a re-analysis of the deposited data

Results flagged for a closer look

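The response to SIRT3 knockdown differed between the 3 lines for 32 of 38 members, by an F test on the interaction of line and hairpin (limma, 27 libraries, Benjamini-Hochberg adjusted over all genes), beside 41.8% of all genes. Among the members named in the text, the adjusted p was 8.31e-05 for SAMD9L, 0.000627 for IFI44, 0.000782 for STAT2, 0.000940 for IFI6 and 0.00118 for DDX60. It was 0.00277 for HERC6, 0.00291 for IFI44L, 0.00296 for IFI35, 0.00303 for ISG15 and 0.00417 for IFIT2 in the same limma test. It was 0.00688 for IFITM1, 0.00701 for IFI27, 0.00930 for OAS2, 0.0140 for USP18 and 0.0161 for DDX58, again with limma. The cause of these differences was not tested.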

How the results depend on the processing

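Of 63 named results under 1067 alternatives, 881 kept their direction and their side of the threshold, 186 kept the direction but lost the call, and none reversed; 29 of the 63 held under every alternative. The counts of members here include RSAD2 where it was tested. Of 15 counts of called members under 303 alternatives, 254 stayed within 1.5 times the value reported. With a pseudocount of 1, the 3-line count with shSIRT3-1 was 2 in place of 4, and that of OCI-LY1 with shSIRT3-2 was 0 in place of 2. Beside these, 8.06% and 5.44% of all genes were called. Without the filter, Karpas422 with shSIRT3-1 had 1 and OCI-LY1 with shSIRT3-2 had 0, beside 9.88% and 2.61% of all genes. In 1 fit of 9 group means, Karpas422 with shSIRT3-1 had 7, OCI-LY1 with shSIRT3-2 had 0 and OCI-LY1 shSIRT3-2 against shSIRT3-1 had 8. The shares of all genes called in that fit were 14.3%, 8.27% and 5.72%. The cause was not tested.

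With the replicate block, HBL1 had 30 members called with shSIRT3-1 in place of 17 and 15 with shSIRT3-2 in place of 7. Beside these, 31.5% and 27.3% of all genes were called. The paired counts of OCI-LY1 were 18, 3 and 18 of 30 (shSIRT3-1, shSIRT3-2 and the difference of the hairpins), beside 6.58%, 9.10% and 6.56% of all genes. Of the 24 members there that were not admitted by their shSIRT3-1 values, 12, 1 and 12 were called. In Karpas422 the numbers did not pair the libraries by the rule used. Its counts with the block were 3, 22 and 1 of 37, beside 17.3%, 16.5% and 13.3% of all genes. Without the HBL1 libraries numbered 3, chosen after seeing the data, the HBL1 counts were 28 and 12, beside 29.0% and 27.7% of all genes. The number of all genes called in HBL1 with shSIRT3-1 went from 3280 to 3736 with the block and 3331 without those libraries.

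When each library was left out in turn, the counts ranged from 1 to 30 in Karpas422 with shSIRT3-1, 9 to 34 with shSIRT3-2 and 0 to 9 for the difference of the hairpins. The ranges were 0 to 18, 0 to 1 and 6 to 16 in OCI-LY1, and 2 to 20, 5 to 11 and 14 to 32 in HBL1. They were 4 to 5 and 6 to 13 over the 3 lines and 27 to 36 for the difference between lines. Over the same fits, the shares of all genes called were 12.5% to 17.0%, 11.7% to 15.6% and 7.61% to 11.7% in Karpas422. In OCI-LY1 these shares were 0.332% to 10.1%, 1.06% to 11.8% and 1.85% to 5.37%. In HBL1 these shares were 19.4% to 31.3%, 17.0% to 28.6% and 17.6% to 32.1%. Over the 3 lines the shares were 11.2% to 14.6% and 12.0% to 15.0%, and for the difference between lines 32.2% to 48.0%. With edgeR on recovered reads, 2, 14 and 1 members were called in Karpas422 (1729, 1710 and 1202 of all genes), 15, 2 and 13 in OCI-LY1 (548, 784 and 531), and 12, 6 and 25 in HBL1 (3236, 2842 and 3327).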
